A study of Mus musculus with 6 samples.

Results

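Mitochondria carry their own ribosome, which translates the proteins encoded by mitochondrial DNA, all of them subunits of the oxidative phosphorylation complexes. Its RNAs are transcribed from mitochondrial DNA, whereas its proteins are encoded in the nucleus, made in the cytosol and imported, so its assembly draws on both genomes. T cells enlarge their mitochondria when they are activated and divide, and cytotoxic T cells need mitochondrial translation to keep killing targets. The genes of these proteins are named Mrpl for the large subunit and Mrps for the small one. The files listed 32227 genes, of which 78 carry such a symbol, 49 Mrpl and 29 Mrps genes. The names do not always give the place: the proteins of Mrps30 and Mrps18a sit in the large subunit, and that of Mrps36 works in the alpha-ketoglutarate dehydrogenase complex. Dap3, Ptcd3, Chchd1 and Aurkaip1, of the small subunit, and Gadd45gip1, of the large, encode mitochondrial ribosome proteins under other names.

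Expression was measured by single-cell RNA sequencing (PIPseq) of CD8+ T cells, as counts of unique molecular identifiers (UMIs, 1 per captured RNA molecule), in 6 libraries. Thymus, spleen and B16-OVA melanoma were each sampled once from Pdcd1fl/fl and once from Pdcd1 cKO mice, all on C57BL/6 and over 8 weeks old. The thymic and splenic libraries are labelled baseline, whereas the tumor libraries came from mice bearing B16-OVA tumors. The cKO carries E8I Cd8a-Cre, which removes the floxed Pdcd1 (the gene of PD-1) in CD8+ cells after positive selection, and the controls carry the floxed alleles without Cre. A single mouse was used for each thymus and each spleen library, and 3 mice were pooled for each tumor library, taken on day 12 after tumor cells were injected. With 1 library in each group, no difference between groups could be set against variation between mice. Every interval given is a 95% interval for counting error only, exact Poisson for a level, conditional binomial for a log2 ratio and Clopper-Pearson for a share.

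Barcodes were used as cells when they had 500 or more genes and 1000 or more UMIs, of which no more than 20% came from mitochondrial DNA. These were 1067 thymic cells (6389966 UMIs) from the library labelled Pdcd1fl/fl and 2635 (19143524 UMIs) from that labelled Pdcd1 cKO. The spleen gave 1478 of 6929 barcodes (2220981 UMIs) and 4928 of 4963 (8923997 UMIs), in the same order. In the tumor, 456 and 561 cells passed, of which 289 and 472 were T cells by marker genes, with 3860117 and 5296858 UMIs. Pairs of values below are always given with the library labelled Pdcd1fl/fl first.

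Pdcd1 RNA ran against the labels in thymus and spleen. It had 12 UMIs in the thymic library labelled Pdcd1fl/fl, or 1.88 counts per 1000000 UMIs (CPM, 0.970 to 3.28), and 131 in that labelled Pdcd1 cKO, or 6.84 CPM (5.72 to 8.12). The spleen gave 1 UMI (0.450 CPM, 0.0114 to 2.51) and 104 UMIs (11.7 CPM, 9.52 to 14.1), and tumor T cells 707 UMIs (183 CPM, 170 to 197) and 802 UMIs (151 CPM, 141 to 162). Which exons the floxed allele loses is not stated in the sources used, and the UMIs tag the 3′ ends of RNAs, so whether Pdcd1 UMIs report the deletion cannot be told. Loss of PD-1 protein was checked in the study by flow cytometry, and whether the sequenced mice were among those measured is not stated. By flow cytometry the paper reports more NKG7-positive cells among thymic and effector-like splenic CD8+ T cells of Pdcd1 cKO mice. It also reports more Nkg7 RNA under the Pdcd1 cKO label in these libraries. Whether these measures bear on the labels was not tested. The labels are taken as given, the sign of every label ratio depends on them, and each library is named by its label. A label ratio means the log2 ratio of CPM in the library labelled Pdcd1 cKO over the one labelled Pdcd1fl/fl.

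The libraries also differed in which cells they held. A cycling sum of at least 5 UMIs over Top2a, Mki67, Birc5, Ccna2, Cdk1 and Ube2c was found in 44.4% of thymic cells (41.4 to 47.5) and in 21.3% (19.7 to 22.9). In the spleen that share was 0.271% and 0.325%, and among tumor T cells 46.7% and 50%. At least 1 UMI of Cd8a or Cd8b1 was present in 55.2% and 66.5% of thymic, 58.4% and 78.8% of splenic and 95.5% and 97.0% of tumor T cells. All 6 markers of immature thymocytes were detected in both thymic libraries, summing to 622 and 520 CPM with Dntt the most abundant. Of 5 B cell markers, 4 were detected in the splenic library labelled Pdcd1fl/fl (189 CPM in sum, Ms4a1 at 0) and all 5 in the other (2052 CPM, mostly Igkc). Granulocyte markers showed the same order in spleen, with 1 of 5 detected in the former (Prtn3, 1.8 CPM) and 3 of 5 in the latter (68.5 CPM, Mpo the most abundant, S100a8 and S100a9 at 0). So did erythroid markers, with 2 and 3 of 3 detected, at 0.901 and 26.3 CPM. In the thymic libraries all 4 fibroblast markers were detected, more in that labelled Pdcd1fl/fl (64.0 and 20.4 CPM, mostly Dcn), and erythroid markers made 0.156 and 7.21 CPM. Of 9 macrophage markers, 8 and 9 were detected in tumor T cells, at 27.2 and 67.4 CPM with Lyz2 the most abundant. All 8 melanocyte markers were still found in tumor T cells, at 265 and 183 CPM. The part of these differences in the results below was not tested beyond the subsets given.

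Summed over the 78 genes, mitochondrial ribosome RNA reached 10342 CPM (10263 to 10421) in the thymus labelled Pdcd1fl/fl and 5919 CPM (5885 to 5954) in that labelled Pdcd1 cKO. The spleen had 5064 CPM (4971 to 5159) and 5087 CPM (5040 to 5134). Tumor T cells had 7376 CPM (7291 to 7463) and 8249 CPM (8172 to 8327). The thymus labelled Pdcd1fl/fl thus stood highest, both splenic libraries lay side by side at the bottom, and tumor T cells came between the thymic libraries. Tumor barcodes with melanocyte RNA, which are not T cells, had 9140 CPM in 143 barcodes and 9626 CPM in 58. Barcodes with macrophage RNA had 5223 CPM in 22 and 4925 CPM in 30.

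All 78 genes had UMIs in each of the 6 libraries. Mrps28, the small-subunit gene with the most UMIs in 5 of them, made 756 and 468 CPM in thymus, 232 and 288 in spleen and 829 and 971 in tumor T cells. Mrpl33, a small protein of the large subunit, exceeded it only in the spleen labelled Pdcd1fl/fl. Its levels were 364 and 203 CPM in thymus, 308 and 266 in spleen and 499 and 559 in tumor T cells. The fewest UMIs came from Mrps2 in 5 libraries, at 10.6 and 7.68 CPM in thymus and 1.8 and 4.48 in spleen, with only 4 UMIs in the spleen labelled Pdcd1fl/fl. In tumor T cells labelled Pdcd1fl/fl it was Mrps31, at 6.22 CPM. The 5 most abundant genes carried from 21.3% of the family's UMIs, in the thymus labelled Pdcd1 cKO, to 30.0%, in tumor T cells labelled Pdcd1 cKO. These levels are relative to all UMIs and not per base, and UMIs are taken near the 3′ end, so they rank the captured RNA and not the proteins.

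Large and small subunit genes kept a steady ratio within a tissue. Large-subunit genes summed to 6502 and 3729 CPM in thymus, 3254 and 3239 in spleen and 4467 and 4929 in tumor T cells. Small-subunit genes summed to 3840 and 2190, 1810 and 1848, and 2909 and 3320 CPM. Their quotient was 1.69 and 1.70 in thymus, 1.8 and 1.75 in spleen and 1.54 and 1.48 in tumor T cells, so the tumor had the lowest in both labels. That order rested on Mrps28. Without it, a choice made after the data had been seen, the quotients were 2.11 and 2.17 in thymus, 2.06 and 2.08 in spleen and 2.15 and 2.10 in tumor T cells, and the tumor was not the lowest. Counting all 29 small-subunit genes, melanocyte-marked tumor barcodes had 1.79 and 1.75.

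**Figure D1:**
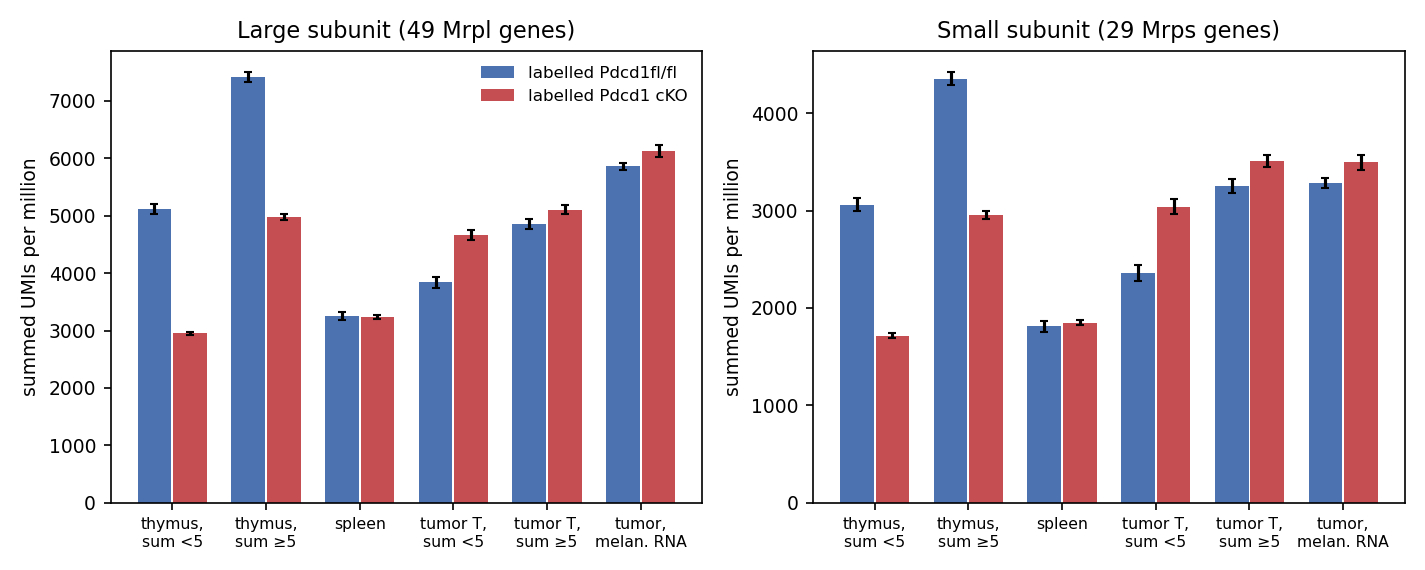
Summed CPM of the 49 large-subunit (left) and 29 small-subunit genes (right), for cells below and at or above a cycling sum of 5 in thymus and tumor T cells, for spleen and for tumor barcodes with melanocyte RNA. Bars are 1 library each, error bars are exact Poisson 95% intervals, and the thymic library labelled Pdcd1fl/fl stands above the other in both cycling classes.

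The first question was whether the family differs between thymic libraries that differ in label. The summed label ratio was -0.81 (-0.82 to -0.79), or 1.75-fold lower in the library labelled Pdcd1 cKO. Large and small subunits moved alike, at -0.80 (-0.82 to -0.78) and -0.81 (-0.83 to -0.79). Placing Mrps30 and Mrps18a with the large subunit and leaving out Mrps36 gave -0.80 and -0.81. Of the 78 genes, 76 had a ratio below 0, as did 56.0% of all genes. Past 1.5-fold were 45 genes lower and 0 higher, where 15.9% of 10380 genes with at least 100 UMIs were lower and 10.7% higher. The genes' median was -0.70, against -0.07 for all genes. With the scaling that sets the median of all genes to 0, the summed ratio was -0.73 and 42 genes were lower past the fold, as were 12.7% of all genes.

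Cycling cells are the cells with more of this RNA, and the thymic libraries held different shares of them, so each class was also compared alone. Among cells under a cycling sum of 5, the family made 8181 CPM in 593 cells and 4667 CPM in 2075 cells, a label ratio of -0.81 (-0.83 to -0.79). Among cells at 5 or more it made 11767 CPM in 474 cells and 7931 CPM in 560 cells, a ratio of -0.57 (-0.59 to -0.55). The gap was thus present within both classes, and 72 of the 78 genes (92.3%) were lower in both, against 45.3% of the 7783 genes with at least 100 UMIs in each class. Cells with a Cd8a or Cd8b1 UMI gave -0.77, and cells with no UMI of Dntt, Rag1, Rag2, Ptcra, Cd4 or Il2ra gave -0.82.

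Depth per cell was compared as well, because median UMIs were 4361 and 5417. Thymic cells with 2000 to 4000 UMIs had 8176 CPM (8034 to 8319) and 4607 CPM (4521 to 4695). Those with 4000 to 8000 had 10196 and 4604 CPM, and those with 8000 to 16000 had 12106 and 5861 CPM. Above 16000 UMIs the libraries came closest, at 10791 CPM in 33 cells and 8590 CPM in 195. The order of the libraries was the same in each of these 4 depth classes. After every cell was thinned to 1000 UMIs, the median thymic cell had 9 mitochondrial ribosome UMIs in the one labelled Pdcd1fl/fl and 4 in the other. The quartiles of these thinned counts were 6 and 12 in the former and 3 and 7 in the latter, so the distributions were shifted and overlapped. Cells with none were 2 of 1067 and 43 of 2635.

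Mrpl42 and Mrps18c had the lowest thymic label ratios of each subunit. Mrpl42, a large-subunit protein with no bacterial counterpart, made 351 and 116 CPM in thymus, 128 and 136 in spleen and 148 and 164 in tumor T cells. Its thymic label ratio was -1.60 (-1.68 to -1.51), and it was -1.72 below and -1.20 at or above the cycling sum of 5. Mrps18c is the closest small-subunit relative of a bacterial protein that mammals keep in 3 versions, Mrps18a, Mrps18b and Mrps18c. Mrps18c made 319 and 117 CPM in thymus, 170 and 140 in spleen and 150 and 200 in tumor T cells, with a thymic label ratio of -1.45 (-1.53 to -1.36). Mrps14, of the head of the small subunit, made 381 and 147 CPM in thymus (-1.37, -1.45 to -1.29), 214 and 168 in spleen and 144 and 162 in tumor T cells. For all 3 genes the thymus labelled Pdcd1fl/fl had the highest level of the 6 libraries.

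The other versions of that protein did not follow Mrps18c in every tissue. Mrps18a, whose protein sits in the large subunit, made 102 and 44.2 CPM in thymus, 27.9 and 42.4 in spleen and 51.0 and 52.3 in tumor T cells. Its label ratio was -1.20 (-1.35 to -1.05) in thymus and 0.60 (0.21 to 1.01) in spleen, past 1.5-fold in opposite directions. The splenic value fell below 1.5-fold, to 0.43, with the median of all genes set to 0, and to 0.54 in cells with 2000 or more UMIs and no more than 10% mitochondrial. It rose to 0.78 with every deposited barcode and to 0.79 in cells without markers of other lineages. Mrps18b made 43.7 and 34.8 CPM in thymus, 14.4 and 26.4 in spleen and 23.1 and 27.0 in tumor T cells. Its label ratio was -0.33 (-0.53 to -0.12) in thymus and 0.88 (0.34 to 1.46) in spleen. The thymic ratio of Mrps18b changed sign with the cells used. It was 0.08 at a cycling sum of 5 or more, and 0.07 without any UMI of Dntt, Rag1, Rag2, Ptcra, Cd4 or Il2ra. In the spleen, Mrps18c had -0.28 (-0.45 to -0.11), which was 0.04 in the cells of higher depth.

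At the other end, 2 genes were not lower in the thymus labelled Pdcd1 cKO. Mrpl3, a core protein near the catalytic centre of the large subunit, made 37.7 and 41.5 CPM there, a label ratio of 0.14 (-0.07 to 0.35). Within cycling cells its ratio was 0.44 (0.17 to 0.73), and within the others -0.07 (-0.40 to 0.27). Mrps6, a small-subunit protein, made 31.3 and 32.4 CPM, with a ratio of 0.05 (-0.18 to 0.29), which was 0.03 (-0.27 to 0.33) within cycling cells and 0.41 (-0.01 to 0.85) within the others. Mrps24 came next, at 56.5 and 52.9 CPM and -0.10 (-0.27 to 0.08), with -0.08 (-0.30 to 0.15) and 0.16 (-0.14 to 0.48) in the classes. The intervals of these 3 genes include 0 in all thymic cells, and their ratios depended on the cells used. In cells with no UMI of Dntt, Rag1, Rag2, Ptcra, Cd4 or Il2ra, Mrpl3 had 0.41, Mrps6 -0.14 and Mrps24 -0.53.

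**Figure D2:**
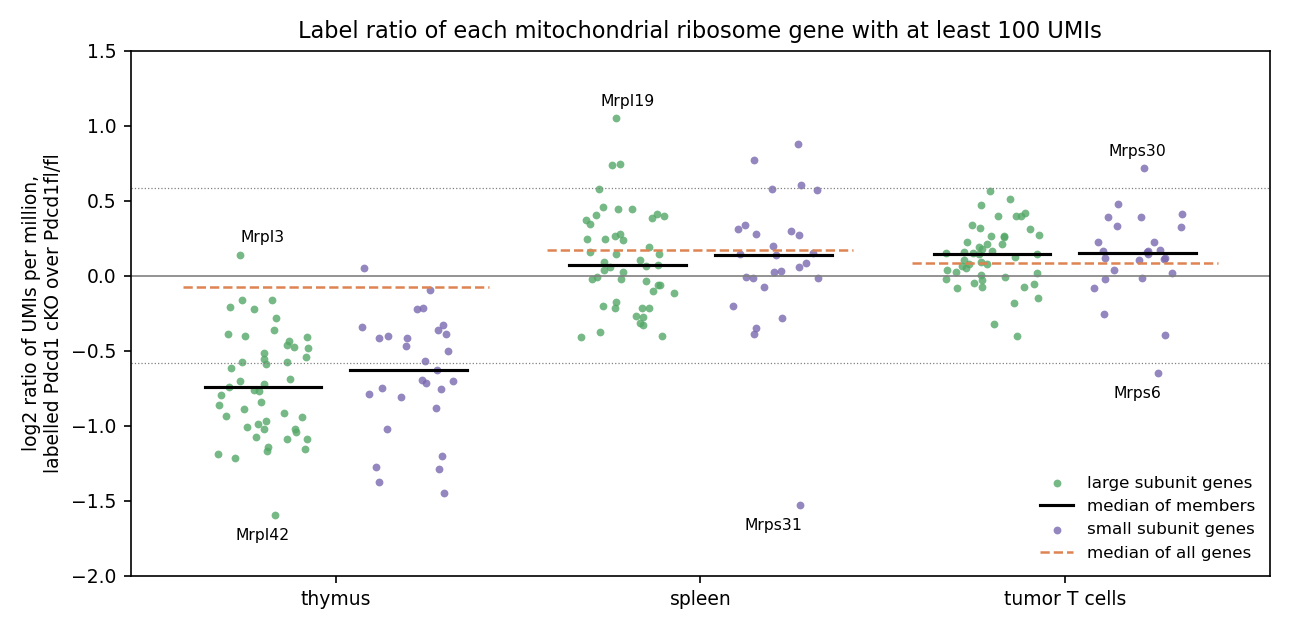
Label ratio (log2 of CPM, cKO label over fl/fl label) of each large-subunit and small-subunit gene with at least 100 UMIs in the pair of libraries; black bars are the medians of each subunit, dashed lines the median of all genes, dotted lines 1.5-fold. In thymus 76 of 78 genes lie below 0, whereas in spleen the median of the family is 0.09, and -0.17 is the summed ratio there when the median of all genes is set to 0.

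Genes that work with the mitochondrial ribosome were read from lists made for this purpose. Among the 5 mitochondrial ribosome proteins with other names, 3 were lower past 1.5-fold in thymus, and their sum fell from 695 to 411 CPM (-0.76, -0.81 to -0.71). Gadd45gip1 was the lowest, at 117 and 53.5 CPM (-1.13), and Ptcd3 the highest, at 49.3 and 40.0 CPM (-0.30). Dap3, which binds GTP in the small subunit, made 90.5 and 67.4 CPM (-0.42), Chchd1 276 and 154 (-0.84) and Aurkaip1 162 and 95.5 (-0.76). These genes thus had the direction of the Mrp family in thymus.

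Factors that serve the same ribosome are read beside the 15.9% of all genes that were lower in thymus and the 10.7% higher. Of 13 translation factors with enough UMIs, 3 were lower past the fold and 0 higher, with a median label ratio of -0.30. Among these 13, Tsfm, the exchange factor of the mitochondrial elongation factor Tu, was lowest at -0.91. The whole list of 15 translation factors summed to 312 and 239 CPM. Of 16 mitochondrial aminoacyl-tRNA synthetases, 4 were lower and 1, Lars2, was higher at 0.78, with a median of -0.40. Of 22 assembly genes, 1 was lower, the GTPase gene Mtg1 at -1.15, and their median was -0.18. Of 11 genes of mitochondrial transcription and RNA, 1 was lower, the RNA-binding Slirp at -0.62, and 1 higher, the helicase gene Supv3l1 at 0.60, with a median of 0.03.

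RNAs of oxidative phosphorylation genes and of cytosolic ribosomal protein genes gave a contrast in thymus. Nuclear genes of oxidative phosphorylation resembled the Mrp family: 52 of 79 were lower past the fold and 0 higher, with a median of -0.75. Their whole list of 86 summed to 40973 and 24955 CPM. The 13 protein genes of mitochondrial DNA, which the mitochondrial ribosome translates, went the other way, with 7 higher and 0 lower, a median of 0.72 and a sum of 39240 and 49185 CPM. Cytosolic ribosomal protein genes were higher in 24 of 82 and lower in 3, with a median of 0.39. Their whole list of 85 summed to 263612 and 335870 CPM. Because cytosolic ribosomal protein RNA took up 26.4% and 33.6% of all UMIs, the family was also scaled to the total without it, mitochondrial RNA and Malat1. That gave a thymic label ratio of -0.62 for the Mrp genes.

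The second question was how the family differs between cycling and other thymocytes, which was answered inside each thymic library. In the library labelled Pdcd1fl/fl the log2 ratio of cycling over other cells was 0.52 (0.50 to 0.55), and in that labelled Pdcd1 cKO 0.77 (0.75 to 0.78), with a mean of 0.64. A sign-flip test over 2 libraries cannot give a p below 0.5. Large-subunit genes gave 0.53 and 0.75, and small-subunit genes 0.51 and 0.78. Of 78 genes, 76 were above 0 in both libraries and 0 below 0 in both, against 37.4% and 41.4% of all genes. Past 1.5-fold in both were 30 genes higher and 0 lower, where 9.66% of all genes were higher and 14.4% lower. The genes' median was 0.65, against -0.04 for all genes.

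Cells with more UMIs reach a cycling sum of 5 more easily, so the classes were also set in other ways. When cells were thinned to 2000 UMIs before the sum was taken and 2 UMIs were required, the ratios were 0.40 and 0.55. Cells with 5000 to 15000 UMIs gave 0.41 and 0.53. These ratios were smaller and above 0, but depth still differed between the classes. In the window, median UMIs were 7900 in cycling and 6417.5 in other cells of the library labelled Pdcd1fl/fl, and 7475 and 6682 in that labelled Pdcd1 cKO. With thinned cells they were 5498 and 3788, and 5886 and 5310.5. The part of depth in the ratio was not tested further. After thinning to 1000 UMIs, the median cycling cell had 11 and 7 mitochondrial ribosome UMIs and the median other cell 7 and 4.

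Mrpl51 rose most with cycling. This large-subunit gene made 85.5 CPM in other cells and 179 in cycling cells of the thymus labelled Pdcd1fl/fl (1.07, 0.85 to 1.30). In that labelled Pdcd1 cKO it made 37.5 and 119 CPM (1.67, 1.5 to 1.84). Mrpl42 went from 238 to 425 CPM (0.84) and from 72.3 to 186 (1.36). Mrpl18, a core protein of the large subunit, went from 235 to 421 CPM (0.84) and from 95.9 to 242 (1.34). Mrpl28 went from 96.5 to 188 CPM (0.96) and from 43.1 to 101 (1.23). In the small subunit Mrps28 had the highest mean, from 561 to 886 CPM (0.66) and from 310 to 722 (1.22). All 5 rose more in the library labelled Pdcd1 cKO, whose other cells started lower.

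Some genes hardly differed between the classes. Mrpl9, a large-subunit protein, made 61.1 CPM in other and 63.9 in cycling cells (0.06, -0.23 to 0.36) and 56.3 and 51.5 CPM (-0.13, -0.32 to 0.06). Mrps30 made 33.9 and 34.8 CPM (0.04, -0.36 to 0.45) and 27.1 and 26.3 CPM (-0.05, -0.31 to 0.22). Mrpl32, whose protein is cut by a mitochondrial protease before it joins the ribosome, made 81.9 and 88.0 CPM (0.10) and 73.1 and 82.0 (0.17). Mrps16 made 165 and 184 CPM (0.16) and 126 and 144 (0.19). For Mrpl9 and Mrps30 the sign differed between the libraries and all intervals include 0.

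**Figure D3:**
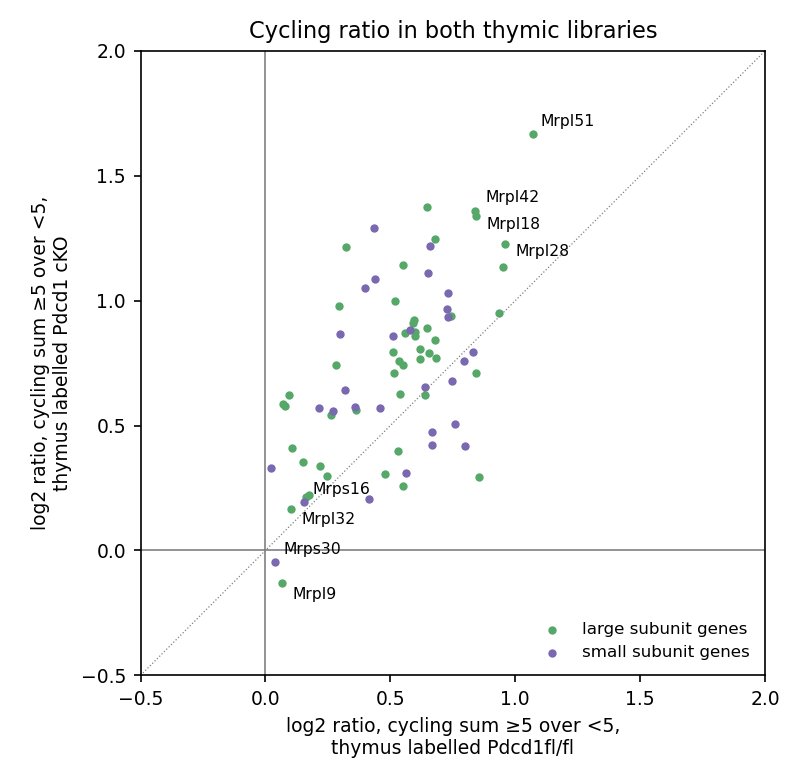
Log2 ratio of CPM in thymocytes with a cycling sum of at least 5 over those under 5, with the library labelled Pdcd1fl/fl on the horizontal axis and on the vertical that labelled Pdcd1 cKO; each point is a gene and the dotted line marks equal ratios. Mrpl51 lies furthest up at 1.07 and 1.67, and 76 of the 78 genes are above 0 in both libraries.

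Genes with special tasks in the family are given with their cycling ratios. Mrpl12, whose protein also binds the mitochondrial RNA polymerase, went from 217 to 340 CPM (0.65) and from 81.1 to 210 (1.37). Mrpl58 encodes a hydrolase that frees stalled mitochondrial ribosomes, and went from 113 to 215 CPM (0.93) and from 60.4 to 117 (0.95). Mrps12, related to the bacterial protein at the decoding site, went from 83.5 to 138 CPM (0.73) and from 46.3 to 90.5 (0.97). Mrpl11, of the stalk base where translation factors bind, went from 71.7 to 104 CPM (0.53) and from 43.1 to 72.8 (0.76). Mrps36, the subunit of another complex, went from 134 to 181 CPM (0.44) and from 64.8 to 138 (1.09). Each of these 5 genes was higher in cycling cells of both libraries.

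In the same comparison, related lists are read beside the 9.66% of all genes that were higher past the fold and the 14.4% lower, and the 37.4% above 0 in both libraries. All 5 mitochondrial ribosome proteins with other names were higher in cycling cells of both libraries, 3 of them past 1.5-fold, with a median of 0.74. Nuclear oxidative phosphorylation genes were above 0 in both libraries for 75 of 79, with a median of 0.57, but only 10 (12.7%) were past the fold, a share near that of all genes. Translation factors had a median of 0.18 with 3 of 13 higher and 1 lower, aminoacyl-tRNA synthetases 0.09 with 2 of 16 higher, assembly genes 0.04 with 3 of 22 higher, and transcription genes 0.25 with 0 of 11 past the fold. In those lists Tsfm (1.13), Aars2 (1.38), Mtg1 (1.253) and Slirp (0.78) were the highest, and Mtif3 (-1.12) and Wars2 (-0.88) among the lowest. The protein genes of mitochondrial DNA had medians of opposite sign in the libraries, -0.21 and 0.14, with 0 past the fold. Cytosolic ribosomal protein genes had a median of -0.15, with 2 of 82 higher and 2 lower.

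In the spleen the summed label ratio was 0.01 (-0.02 to 0.04), with -0.01 for the large and 0.03 for the small subunit. Here the scaling decided the direction. The median of all genes was 0.17, and with that set to 0 the family's ratio became -0.17. Past 1.5-fold were 6 genes higher and 1 lower of 76, where 17.7% of 7843 genes were higher and 3.39% lower. Relative to the median of all genes, 3 were higher and 2 lower, where 10.5% and 7.06% of all genes were. The genes' own median was 0.09, and 47 (61.8%) were above 0, against 66.6% of all genes. Thinned to 1000 UMIs, the median splenic cell had 5 mitochondrial ribosome UMIs in both libraries.

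A few genes differed between the splenic libraries while the sum did not. Mrps31, a small-subunit protein without a bacterial counterpart, made 39.2 and 13.6 CPM in spleen, a label ratio of -1.53 (-1.94 to -1.12). It made 53.4 and 32.8 CPM in thymus and 6.22 and 12.5 in tumor T cells, so the spleen labelled Pdcd1fl/fl lay near the thymus. Mrpl19 made 18.0 and 37.3 CPM in spleen (1.05, 0.57 to 1.56), 62.8 and 42.1 in thymus and 21.8 and 31.0 in tumor T cells. Mrps7, which lines the path of the messenger RNA in the head of the small subunit, made 24.3 and 41.5 CPM in spleen (0.77, 0.36 to 1.21) against 55.1 and 37.1 in thymus and 46.1 and 58.0 in tumor T cells. Mrpl23, at the exit of the peptide tunnel, and Mrpl35 were lower, from 292 to 220 CPM (-0.41, -0.54 to -0.28) and from 81.9 to 62.1 CPM (-0.40, -0.64 to -0.15). The choice of cells changed some of these values. The ratio of Mrps31 was -1.07 with every barcode, -2.45 in cells with 2000 or more UMIs and no more than 10% mitochondrial, and -2.10 in cells without markers of other lineages. Mrps7 fell below 1.5-fold under the same 3 choices, at 0.58, 0.52 and 0.50. The intervals of Mrpl19, Mrps7 and Mrps18b are wide because the spleen labelled Pdcd1fl/fl held the fewest UMIs of all libraries. In cells free of B cell, granulocyte, macrophage and erythroid markers, the summed splenic ratio was 0.04.

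All genes leaned higher in the spleen labelled Pdcd1 cKO, with a median of 0.17. Past 1.5-fold, 17.7% were higher and 3.39% lower, and no list was tested against them. Of 7 translation factors, 4 were higher past the fold, with a median of 0.66, led by Oxa1l (0.96), whose product inserts new proteins into the inner membrane. Assembly genes had 5 of 16 higher and 1 lower, with a median of 0.25. The sum of the mitochondrial ribosome proteins with other names rose from 314 to 382 CPM (0.28, 0.16 to 0.40), with Gadd45gip1 at 57.2 and 102 CPM (0.84) and Dap3 at 29.3 and 46.6 CPM (0.67) past the fold. Nuclear oxidative phosphorylation genes (median -0.14) and cytosolic ribosomal protein genes (median -0.33) leaned lower, with 5 of 77 and 1 of 82 higher and 1 and 4 lower past the fold. The 12 protein genes of mitochondrial DNA with enough UMIs had a median of 0.23 and 0 past the fold.

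In tumor T cells the summed label ratio was 0.16 (0.14 to 0.18), with 0.14 (0.11 to 0.17) for the large and 0.19 (0.16 to 0.22) for the small subunit. Past 1.5-fold was 1 gene in each direction of 74, where 10.7% of 5027 genes were higher and 5.21% lower. The median of the genes was 0.15, against 0.08 for all genes, and the summed ratio was 0.08 when that median was set to 0. Scaled to the total without mitochondrial, cytosolic ribosomal protein and Malat1 RNA, it was 0.03. T cells under a cycling sum of 5 made 6195 CPM in 154 cells and 7702 CPM in 236 cells (0.31), and those at 5 or more 8105 CPM in 135 cells and 8617 CPM in 236 cells (0.09). The difference was thus small, positive in both classes, and larger in the cells under 5. By depth, T cells with 4000 to 8000 UMIs had 5187 and 7564 CPM, those with 8000 to 16000 had 6708 and 8003, and those above had 8615 and 9158.

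Mrps30 and Mrps6 were the genes past the fold in tumor T cells, though not under every choice of cells. Mrps30, of the large subunit by place, made 17.4 and 28.5 CPM there (0.72, 0.29 to 1.15), 34.4 and 26.8 in thymus and 24.8 and 25.2 in spleen. Mrps6 made 70.5 and 44.9 CPM in tumor T cells (-0.65, -0.91 to -0.39) and 22.5 and 21.4 in spleen. In tumor barcodes with melanocyte RNA, Mrps6 made 194 and 203 CPM, above its level in both sets of tumor T cells. The ratio of Mrps30 was 0.43 with all filtered barcodes and 0.56 in T cells at a cycling sum of 5 or more, and that of Mrps6 -0.55 in those under 5, all within 1.5-fold. Whether melanocyte RNA among the T cells bears on its ratio was not tested. Mrpl54 made 171 and 254 CPM in tumor T cells (0.56, 0.43 to 0.70), 195 and 95.9 in thymus and 107 and 91.9 in spleen. Mrpl50 (25.6 and 19.4 CPM, -0.40, -0.81 to 0.01) and Mrps10 (23.8 and 18.1 CPM, -0.40, -0.82 to 0.03) were next lowest, with intervals that include 0.

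Related lists in tumor T cells are given beside all genes, of which 10.7% were higher and 5.21% lower, with a median of 0.08. Nuclear oxidative phosphorylation genes had a median of 0.14 with 0 of 77 past the fold, and cytosolic ribosomal protein genes -0.18 with 0 of 82. The protein genes of mitochondrial DNA had a median of -0.40 with 2 of 12 lower. Of 4 translation factors with enough UMIs, 1 was higher, Gfm2 at 4.40 and 41.0 CPM (3.22, 2.51 to 4.02). Past the fold were 0 of 7 assembly genes and 0 of 4 mitochondrial ribosome proteins with other names. Among the latter, Dap3 made 44.6 and 33.8 CPM (-0.40, -0.71 to -0.09). Of the synthetases only Fars2 (0.29) had enough UMIs.

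Tissues were compared within a label. In these ratios tissue and library batch cannot be told apart, and only the tumor libraries came from mice known to bear tumors. Spleen over thymus, the family's summed log2 ratio was -1.03 (-1.06 to -1.0) in libraries labelled Pdcd1fl/fl and -0.22 (-0.23 to -0.20) in those labelled Pdcd1 cKO, with a mean of -0.62. Past 1.5-fold in both labels were 16 genes lower and 0 higher, where 21.8% of 11325 genes were lower and 12.5% higher, so the family's share, 20.5%, was close to that of all genes. Below 0 in both were 60 genes (76.9%), against 47.3% of all genes. The genes' median was -0.66 and that of all genes -0.24. With the median of genes holding at least 100 UMIs within a label set to 0, the summed ratios were -0.60 and -0.11. With each label's median over genes holding at least 100 UMIs in both labels together set to 0, 9 genes were lower past the fold. Of all genes, 16.6% then were. Against thymic cells under a cycling sum of 5, the ratios were -0.69 and 0.12, so the sign differed between labels once cycling cells were set aside.

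Mrpl47, a large-subunit protein at the tunnel exit, had the lowest mean. It made 62.8 and 32.1 CPM in thymus and 12.2 and 12.0 in spleen (-2.37, -2.99 to -1.81, and -1.42, -1.73 to -1.12). Mrps22, of the small subunit, made 38.7 and 30.5 CPM in thymus and 9.01 and 11.1 in spleen (-2.10 and -1.46). Mrps2 had few UMIs in spleen, as given above, and its ratios were -2.56 (-4.48 to -1.14) and -0.78 (-1.32 to -0.26). The highest means were near 0 and hid opposite signs. Mrpl33 had -0.24 (-0.37 to -0.12) and 0.39 (0.31 to 0.46), and Mrpl24, a neighbour of the peptide tunnel, had -0.26 and 0.38, from 125 and 95.2 CPM in thymus to 104 and 124 in spleen. Mrpl52 hardly differed, at 236 and 211 CPM in thymus and 240 and 199 in spleen (0.02 and -0.09).

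Tumor T cells over spleen, the summed log2 ratio was 0.54 (0.51 to 0.57) and 0.70 (0.68 to 0.72), with a mean of 0.62. Small-subunit genes gave 0.68 (0.63 to 0.74) and 0.85 (0.81 to 0.88), and large-subunit genes 0.46 (0.42 to 0.50) and 0.61 (0.58 to 0.63). The higher sum of the small subunit came with Mrps28, since the other 28 small-subunit genes gave 0.40 (0.34 to 0.46) and 0.59 (0.56 to 0.63). Past 1.5-fold in both labels were 29 of 78 genes higher and 1 lower, where 14.3% of 9358 genes were higher and 47.6% lower. The median of all genes was -0.79, which shifts with the scaling, and the genes' median was 0.54. With the median of genes holding at least 100 UMIs within a label set to 0, the summed ratios were 0.92 and 1.55. With each label's median over genes holding at least 100 UMIs in both labels together set to 0, 56 genes were higher past the fold and 0 lower. Of all genes, 29.2% were then higher and 29.7% lower. T cells of the tumor under a cycling sum of 5 gave 0.29 and 0.60. Tumor and splenic libraries also differed in depth, with median UMIs of 11042 and 9111 against 1320.5 and 1615. After thinning to 1000 UMIs, the median tumor T cell had 7 and 8 mitochondrial ribosome UMIs, against 5 in both splenic libraries.

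Mrps24 led this comparison. This small-subunit gene made 46.8 and 40.8 CPM in spleen and 211 and 233 in tumor T cells (2.17, 1.88 to 2.48, and 2.52, 2.35 to 2.69). Tumor barcodes with melanocyte RNA had 332 and 361 CPM of it, and the thymus 56.5 and 52.9. Mrps28 followed, from 232 and 288 CPM in spleen to 829 and 971 (1.84, 1.70 to 1.98, and 1.75, 1.68 to 1.82), with 606 and 621 CPM in the melanocyte-marked barcodes. Unlike Mrps24, Mrps28 was thus higher in tumor T cells than in those barcodes. Mrpl16, a core protein of the large subunit, rose from 11.7 and 15.1 CPM to 38.9 and 36.8 (1.73 and 1.28), and Mrpl52 from 240 and 199 CPM to 406 and 429 (0.76 and 1.11). Mrps16 rose from 110 and 109 CPM to 186 and 260 (0.756 and 1.2496).

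Some genes were lower in tumor T cells than in spleen. Mrpl1, of the mobile stalk of the large subunit, made 27.9 and 26.8 CPM in spleen and 8.55 and 10.9 in tumor T cells (-1.71, -2.36 to -1.08, and -1.29, -1.73 to -0.87), and was the gene lower past the fold. Mrps31 fell only between libraries labelled Pdcd1fl/fl, by -2.66 (-3.37 to -1.99), against -0.12 (-0.58 to 0.32) in the other pair. Mrpl35 had -1.0 and -0.34, from 81.9 and 62.1 CPM to 40.9 and 49.1. Mrps14 and Mrps33, among the most abundant members in spleen at 214 and 168 and at 205 and 157 CPM, were at 144 and 162 and at 146 and 158 in tumor T cells (-0.58 and -0.05, and -0.49 and 0.02). The rise of the summed family thus did not hold for each gene.

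Between these tissues the related lists had medians on both sides of 0. Of all genes, 14.3% were higher past the fold in tumor T cells and 47.6% lower, with a median of -0.79. Nuclear oxidative phosphorylation genes were higher in tumor T cells for 37 of 77, with 3 lower and a median of 0.76, and cytosolic ribosomal protein genes for 23 of 82, with 3 lower and a median of 0.41. Synthetases were lower for 9 of 14 with 0 higher (median -0.98), and transcription genes for 7 of 8 with Slirp alone higher at 1.10 (median -1.42). Assembly genes were lower for 6 of 19 and higher for 1 (median -0.48), and translation factors lower for 3 of 10 and higher for 1, Tsfm at 1.62 (median -0.19). The protein genes of mitochondrial DNA were lower for 7 of 12 (median -1.0), and made 3.78% and 4.36% of UMIs in spleen and 1.96% and 1.76% in tumor T cells.

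Between spleen and thymus the same lists are read beside the 21.8% of all genes that were lower in spleen and the 12.5% higher. Oxidative phosphorylation genes were lower in spleen for 19 of 79 with 1 higher (median -0.66), translation factors for 4 of 14 (median -0.68), assembly genes for 5 of 24 (median -0.51) and synthetases for 2 of 16 (median -0.31). Transcription genes were lower for 4 of 11 and higher for 1, Mterf1a at 1.16 (median -0.53). Cytosolic ribosomal protein genes had medians of 0.28 and -0.41 in the labels, with 7 of 82 higher past the fold in both and 1 lower. Protein genes of mitochondrial DNA had medians of 0.01 and -0.69 with 0 past the fold, so for both lists the labels differed. The mitochondrial ribosome proteins with other names had a summed ratio of -1.15 and -0.11, close to the -1.03 and -0.22 of the Mrp genes.

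The 78 genes were placed on the mouse genome with GENCODE vM39 (GRCm39), and all are annotated as protein coding. They lie on 17 chromosomes, with 11 on chromosome 11, 8 on chromosome 17 and 7 on chromosome 6. Their median span was 8088 bases, against 19321 over 21297 protein-coding genes, with a median of 5.5 merged exon blocks against 8. Mrpl42 (ENSMUSG00000062981) is at chr10:95316559-95346150, Mrpl51 (ENSMUSG00000030335) at chr6:125168764-125173232, Mrpl9 (ENSMUSG00000028140) at chr3:94350594-94358437, Mrps28 (ENSMUSG00000040269) at chr3:8865093-8988978, Mrps31 (ENSMUSG00000031533) at chr8:22901363-22921195, Mrps30 (ENSMUSG00000021731) at chr13:118513808-118523838 and Mrpl1 (ENSMUSG00000029486) at chr5:96357146-96414586. Exons of another gene overlap those of 8 members on the same strand and of 57 on the other strand. Mrps24 (chr11:5642243-5665680) shares exon bases with Urgcp and Mrps6 (chr16:91854965-91909592) with Slc5a3 on the same strand, and how the counting shared reads between such genes is not stated.

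Some members start beside another gene. In 7 of 78 members (8.97%) and 4.10% of protein-coding genes, another protein-coding gene starts within 1000 bases on the opposite strand and points away, with at most 50 bases of overlap. That definition misses pairs whose first exons overlap, such as Mrps12 (chr7:28439066-28441680) with Sars2, the mitochondrial seryl-tRNA synthetase gene. A wider one, set after those counts were seen, takes any opposite start within 1000 bases and gave 29 members (37.2%) and 10.2% of protein-coding genes. Mrps11 and Mrpl46 are such a pair within the family, with starts 412 bases apart. Mrpl36 is paired with Ndufs6 and Mrpl47 with Ndufb5, both genes of respiratory complex I, and Mrpl49 with Fau, a cytosolic ribosomal protein gene.

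Promoters of the family were searched for 6 short motifs on both strands, and whether a match goes with a gene's ratios was not tested. RefSeq promoters (GRCm38.p6, 300 bases) were available as 75 sequences for 69 of the genes. Mrpl4, Mrpl13, Mrpl15, Mrpl19, Mrpl38, Mrpl54, Mrps28, Mrps34 and Mrps35 had none. The ETS core CCGGAAG occurred in 26 of the 75 (34.7%), against 8.86% of all 32851 promoters. The YY1 motif AAGATGGC occurred in 12 (16%, against 2.75%) and the NRF1 motif GCGCATGC in 8 (10.7%, against 2.71%). CCAAT, the NF-Y motif, was in 30 (40.0%, against 37.4%), the E-box CACGTG in 7 (9.33%, against 7.15%) and TATAAA in 5 (6.67%, against 13.6%). The median GC content was 58.7%, against 52.7%, and this difference in base composition was not adjusted for. None of the 6 was in 17 of the 75 (22.7%), against 43.0% of all promoters. Several sequences of 1 gene can overlap, as the 3 of Mrpl2 do, which all hold the E-box. Counted once per gene, the ETS core was in 26 of 69 members (37.7%, against 9.93% of 27025 genes), YY1 in 12 (17.4%, against 3.19%) and NRF1 in 8 (11.6%, against 3.05%). CCAAT was then in 27 (39.1%, against 41.1%), the E-box in 5 (7.25%, against 8.09%) and TATAAA in 5 (7.25%, against 15.7%). A listed promoter may belong to another transcript than the one expressed here, which the counts do not show, and a match describes the letters only.

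Promoters of 5 genes are shown 5′ to 3′ with every match to the 6 motifs in capitals. Mrpl51 rose most with cycling (chr6:125191950-125192249, plus strand), Mrpl42 had the lowest thymic label ratio (chr10:95501900-95502199, minus), Mrpl9 did not rise with cycling (chr3:94443086-94443385, plus), Mrpl33 was among the most abundant (chr5:31613701-31614000, plus) and Mrps12 starts beside Sars2 (chr7:28741772-28742071, minus).
Mrpl51: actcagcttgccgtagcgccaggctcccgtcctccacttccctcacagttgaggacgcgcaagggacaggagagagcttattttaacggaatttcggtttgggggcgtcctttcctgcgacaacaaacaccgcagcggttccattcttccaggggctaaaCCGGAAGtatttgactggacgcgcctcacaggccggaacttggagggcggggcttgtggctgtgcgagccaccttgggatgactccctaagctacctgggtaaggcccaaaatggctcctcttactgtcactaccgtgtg
Mrpl42: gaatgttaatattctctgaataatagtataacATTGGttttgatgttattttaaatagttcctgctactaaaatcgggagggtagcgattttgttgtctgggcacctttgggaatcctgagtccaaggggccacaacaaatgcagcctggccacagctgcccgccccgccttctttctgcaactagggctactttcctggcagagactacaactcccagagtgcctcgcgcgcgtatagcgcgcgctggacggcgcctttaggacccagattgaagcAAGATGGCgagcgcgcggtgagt
Mrpl9: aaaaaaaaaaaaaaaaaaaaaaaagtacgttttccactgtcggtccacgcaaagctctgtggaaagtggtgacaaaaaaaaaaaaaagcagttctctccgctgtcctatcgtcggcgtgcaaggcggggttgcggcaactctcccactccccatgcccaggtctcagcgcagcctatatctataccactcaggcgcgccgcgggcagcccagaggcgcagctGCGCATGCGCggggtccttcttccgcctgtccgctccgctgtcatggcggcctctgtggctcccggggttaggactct
Mrpl33: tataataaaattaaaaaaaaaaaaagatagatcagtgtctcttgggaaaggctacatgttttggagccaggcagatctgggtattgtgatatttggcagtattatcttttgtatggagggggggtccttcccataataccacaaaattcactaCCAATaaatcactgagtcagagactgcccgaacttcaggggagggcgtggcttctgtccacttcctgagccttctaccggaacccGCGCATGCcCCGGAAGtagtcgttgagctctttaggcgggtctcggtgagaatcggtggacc
Mrps12: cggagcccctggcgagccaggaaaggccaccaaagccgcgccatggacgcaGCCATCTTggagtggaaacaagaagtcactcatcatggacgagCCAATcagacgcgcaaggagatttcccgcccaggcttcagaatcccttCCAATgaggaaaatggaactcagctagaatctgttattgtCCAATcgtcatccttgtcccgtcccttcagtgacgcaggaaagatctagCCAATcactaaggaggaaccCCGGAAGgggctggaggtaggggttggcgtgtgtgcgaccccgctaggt
Mrpl51 holds 1 ETS core, Mrpl42 a YY1 motif and a reversed CCAAT, and Mrpl9 an NRF1 motif that reads on both strands. Mrpl33 holds CCAAT, NRF1 and ETS letters, and Mrps12 holds YY1, ETS and 4 CCAAT matches. Whether these letters act in thymocytes was not tested.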

How the data were processed

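Gene by barcode matrices of 6 libraries were read as deposited, in which each value is a count of UMIs per gene and cell barcode, without normalization. The authors aligned reads to GRCm39 with the PIPseq pipeline, counted UMIs and called cells. Which strand was counted is not stated. Cells were kept by the filter the authors state, with mitochondrial counts from the 13 protein genes, and no doublets were removed. The members and lists were chosen with earlier results of these data known. In tumor libraries a T cell had at least 3 UMIs of T cell markers and more of them than of any other marker class. This rule was set after the tumor data had been seen, and a stricter one beside it is given with the results by processing. Rps6k genes, Rps19bp1 and Rps23rg1, which match the symbol pattern of cytosolic ribosomal proteins without being such, were left out of that list by name once the pattern had been applied. The wider definition of neighbouring gene starts was likewise set after the narrower had been counted.

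For each set of cells the UMIs of a gene were added up and divided by all UMIs of that set, times 1000000, to give CPM. Genes with at least 100 UMIs in the libraries compared were counted as past 1.5-fold where the log2 ratio exceeded 0.58 in size, in both libraries or labels where there were 2. A gene without UMIs in the numerator or the denominator of a ratio was set to 3 UMIs there. Only genes without UMIs in both were left out of the medians of all genes. Genes named are the 3 highest and 3 lowest in each comparison (4 and 4 for cycling), the highest and lowest of related lists, the 5 with most UMIs in each tissue and members with a known special task. Thinning drew UMIs of each cell without replacement. Barcodes shared between libraries numbered 2, both splenic, and 0 after the filter. Python 3.11.15 with numpy 2.4.6, scipy 1.17.1, pandas 2.3.3 and matplotlib 3.10.9 was used, and the code was tested on simulated counts.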

Additional observations from a re-analysis of the deposited data

Results flagged for a closer look

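The summed label ratio of the mitochondrial ribosome genes was -0.81 in the thymus and 0.16 in tumor T cells, which drew attention as opposite signs with counting intervals that both lie away from 0. With 1 library in each group, the difference between the tissues was not tested.

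Mrps18a had a label ratio of -1.20 in the thymus and 0.60 in the spleen, past 1.5-fold in opposite directions. The splenic value was 0.43, within 1.5-fold, when the median of all genes was set to 0. It was 0.78 with every deposited barcode and 0.79 in cells without markers of other lineages. The difference between thymus and spleen was not tested either.

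Splenic barcodes of the library labelled Pdcd1fl/fl that fail the cell filter, used only in the alternative with every deposited barcode, held 4833 CPM of the family over 5451 barcodes, against 5064 CPM in the 1478 barcodes that pass. Whether this RNA came from cells was not tested.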

How the results depend on the processing

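The summed label ratio of the thymus stayed below 0 and that of the tumor above 0 under every alternative tried. The means of cycling, spleen over thymus and tumor over spleen kept their sign, but within the Pdcd1 cKO label spleen over thymus turned from -0.22 to 0.12 with thymic cells under a cycling sum of 5. The splenic label ratio, 0.01, did not keep a sign. Alternatives named as added were chosen after the data had been seen. The causes of the shifts below were not tested.

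With the total taken without mitochondrial, cytosolic ribosomal protein and Malat1 counts, the label ratio was -0.62 in thymus, -0.13 in spleen and 0.0347 in tumor T cells. The cycling ratio was then 0.55, spleen over thymus -0.57 and tumor over spleen 0.71. With the median of ratios over genes in place of the total, the label ratio was -0.73 in thymus, -0.17 in spleen and 0.0794 in tumor T cells, spleen over thymus -0.35 and tumor over spleen 1.23. Counts of members took the median over all genes tested in a comparison, which for the tissues are not the genes behind these ratios. Members past 1.5-fold were then 3 for the splenic label (higher), 9 for spleen over thymus (lower) and 56 for tumor over spleen (higher). Of all genes, 10.5%, 16.6% and 29.2% were.

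The median over members with at least 20 UMIs, taken in each label and then averaged over labels where there are 2, replaced the sum. It differs from the medians of the main text, which take genes with at least 100 UMIs and average each gene first, and gave -0.70 for the thymic label, 0.10 for the splenic label, -0.69 for spleen over thymus and 0.54 for tumor over spleen. Every deposited barcode gave 0.0474 for the splenic label. Keeping cells with 2000 or more UMIs and no more than 10% of them mitochondrial gave -0.0503 for the splenic label, 0.68 for cycling, -0.58 for spleen over thymus and 0.56 for tumor over spleen.

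Limiting thymic cells to those with a Cd8a or Cd8b1 UMI gave a label ratio of -0.77 and a cycling ratio of 0.76, and cells with a cycling sum of 5 or more gave a label ratio of -0.57. A cycling sum of at least 10 gave a cycling ratio of 0.58, thinned cells 0.48 and cells with 5000 to 15000 UMIs 0.47. Taking all filtered tumor barcodes gave 0.0328 for the tumor label and 0.73 for tumor over spleen.

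Among added alternatives, thymic cells with 4000 to 8000 UMIs gave a label ratio of -1.15, and those with a cycling sum under 5 and a Cd8a or Cd8b1 UMI -0.78. Splenic cells without markers of other lineages gave 0.043. Tumor T cells under a cycling sum of 5 gave a label ratio of 0.31 and those at 5 or more 0.0884, and the former gave 0.44 for tumor over spleen. A stricter T cell rule gave 0.16. Thymic cells under a cycling sum of 5 gave -0.28 for spleen over thymus, as the mean of -0.69 and 0.12. Leaving out Mrps28, the member with most UMIs, gave 0.62 for cycling, and 0.49 in place of 0.76 for the small subunit in tumor over spleen. Leaving out 1 label or library at a time gave 0.52 to 0.77 for cycling, -1.03 to -0.22 for spleen over thymus and 0.54 to 0.70 for tumor over spleen. Spleen over thymus without the splenic library labelled Pdcd1fl/fl was thus -0.22, and without that labelled Pdcd1 cKO -1.03.

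Counts of members past the fold follow the fold by construction. With a difference of 25% asked for in place of 50%, they were 68 for the thymic label (lower), 19 for the splenic and 15 for the tumor label, 52 for cycling and 31 for spleen over thymus. At 2-fold they were 19, 1, 0, 1 and 3, and 12 for tumor over spleen. At a minimum of 50 UMIs the tumor label had 2 members higher, and at 300 it had 0. The shares of all genes at these other cuts were not counted. These counts therefore show only how the number of members moves with the cut, and cannot be set against all genes.

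Alternatives were tallied for the highest and lowest members of each comparison. Of their 276 values, 217 lay inside the counting interval of the main value and 59 outside. The sign changed in 18, and 0 of these came from a value past 1.5-fold. In 1 of the 18, Mrpl19 in tumor T cells, the main interval lay above 0: 0.51 became -0.03 with all filtered barcodes. Outside the tally, Mrps18b in thymus and Mrps18c in spleen, with main intervals below 0, also changed sign. Mrps18b became 0.08 at a cycling sum of 5 or more, and 0.07 in cells without immature thymocyte markers. Mrps18c became 0.04 in cells with 2000 or more UMIs and no more than 10% mitochondrial. No paired analysis was possible because no label links libraries of 1 mouse. The spleen labelled Pdcd1fl/fl, with 2220981 UMIs, limits the precision of splenic ratios most.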
